A study of Drosophila melanogaster with 12 samples.

Results

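The fly brain receives its main fast inhibition through receptors for GABA, and glutamate acts there both as an excitatory and as an inhibitory transmitter. Transcripts of 10 receptor genes were followed: Rdl, Lcch3 and Grd for GABA-gated channels, GABA-B-R1, GABA-B-R2 and GABA-B-R3 for metabotropic GABA receptors, GluClalpha for the glutamate-gated chloride channel, Nmdar1 and Nmdar2 for the NMDA receptor, and mGluR for the metabotropic glutamate receptor. They were picked by symbol from the 17562 genes of the deposited count table. All 10 were found and all 10 passed the filter on low counts, which kept 10738 genes.

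The libraries came from whole brains of male Drosophila melanogaster in 4 groups of 3. These were TDP(52s) flies with Atx2 RNAi (stock BL44012), TDP(52s) flies with mCherry RNAi (BL35785), control flies with Atx2 RNAi, and control flies with mCherry RNAi. All 4 groups carried the DaGS driver and a hairpin, and all were fed RU486, the drug that switches a GeneSwitch driver on, for 6 days before the brains were taken. Crosses were kept at 25 °C and the males were collected 1 to 2 days after eclosion. The control flies carried the driver and a hairpin but no TDP-43. TDP-43 binds RNA and forms aggregates in amyotrophic lateral sclerosis, Atx2 encodes the fly ataxin-2, and flies have no mCherry gene. The daughterless promoter, after which this driver is named, is broadly active, so neither the transgene nor the hairpins are limited to the neurons that carry these receptors, and a difference in genetic background between TDP-43 and control flies cannot be told apart from an effect of TDP-43. Each hairpin came from 1 stock, so other differences between the 2 stocks cannot be told apart from an effect of Atx2 knockdown. The series is about sleep loss in TDP-43 flies and its relief by Atx2 knockdown.

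Rdl and GluClalpha form Cys-loop channels that pass chloride and so lower the excitability of a neuron. GABA-B receptors act more slowly, through inhibitory G proteins that open potassium channels and close calcium channels. In them GABA-B-R1 binds GABA and GABA-B-R2 couples to the G protein, so both subunits are needed. NMDA receptors pass calcium when glutamate is present and the membrane is depolarised. In flies, GABA acting on Rdl in wake-promoting clock neurons promotes sleep, and NMDA receptors of the central complex take part in the sleep drive that builds up during waking.

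The libraries held 29184618 to 45104293 counts, with 12227 to 13466 genes detected. Levels are CPM, the counts of a gene relative to the total of its library after TMM scaling, whose factors ran from 0.962 to 1.03. Atx2, the hairpin's target, had 144, 163 and 155 CPM in TDP-43 flies and 152, 165 and 162 CPM in control flies with its hairpin, against 267, 304 and 289 CPM in TDP-43 flies and 363, 343 and 345 CPM in control flies with the mCherry hairpin. TBPH, the fly's own TDP-43 gene, was lower in all 6 TDP-43 libraries (65.5 to 81.1 CPM) than in all 6 control libraries (127 to 147 CPM), and the transcript of the transgene itself was not analysed. The eye colour gene w, a common marker of transgenes, had 1985 to 2405 CPM in TDP-43 flies and 9.71 to 15.1 CPM in control flies. The summed level of 10 neuron markers was 13914 to 14462 CPM in TDP-43 flies with Atx2 RNAi, 13559 to 14500 CPM in TDP-43 flies with mCherry RNAi, 14437 to 15459 CPM in control flies with Atx2 RNAi and 14946 to 15315 CPM in control flies with mCherry RNAi. None of the 10 was at 0 in any group. The 10 glia markers summed to 2115 to 2406 CPM in the 6 TDP-43 libraries and 2382 to 2890 CPM in the 6 control libraries. Fat body markers, in contrast, summed to 2459 to 10672 CPM in TDP-43 libraries and 1373 to 2977 CPM in control libraries, and muscle markers to 173 to 680 CPM and 83.6 to 280.02 CPM in the same 2 sets. Gut and salivary enzymes reached 1481 CPM in 1 TDP-43 library and were at most 40.7 CPM in control libraries, and lambdaTry, 1 of these 12 enzymes, was at 0 in every library. In such bulk samples fewer cells of a type and less RNA per cell cannot be told apart.

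Levels of different genes were compared per kilobase of exon. In control flies with mCherry RNAi, Rdl stood highest at 210.1 ± 6.77 CPM per kilobase (SD, n = 3, as for all levels). GluClalpha followed at 121 ± 3.35, GABA-B-R2 at 84.9 ± 3.29 and Lcch3 at 62.3 ± 2.56 CPM per kilobase. The next 3 places were not separated beyond their spread, with mGluR at 40.9 ± 1.55, GABA-B-R1 at 39.8 ± 1.34 and Nmdar1 at 38.9 ± 3.17 CPM per kilobase. Nmdar2 stood at 28.3 ± 0.322 and GABA-B-R3 at 21.5 ± 1.11 CPM per kilobase. Grd was far lower, at 3.85 ± 0.227 CPM per kilobase. With TDP-43 and the mCherry hairpin the first 4 places were the same, and GABA-B-R3, at 26.6 ± 1.8 CPM per kilobase, came close to Nmdar2, at 28.8 ± 0.299. The longest transcript was also taken as the length instead of all exons. In control flies with mCherry RNAi, GluClalpha then stands at 141 ± 3.93 and Nmdar2 at 33.5 ± 0.382 CPM per kilobase. The order of the 10 genes in these control flies is unchanged. In TDP-43 flies with mCherry RNAi it changes. Nmdar2, at 34.2 ± 0.355, is then no longer below Nmdar1, at 33.7 ± 2.03, and GABA-B-R1, at 33.0 ± 1.03 CPM per kilobase.

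**Figure D1:**
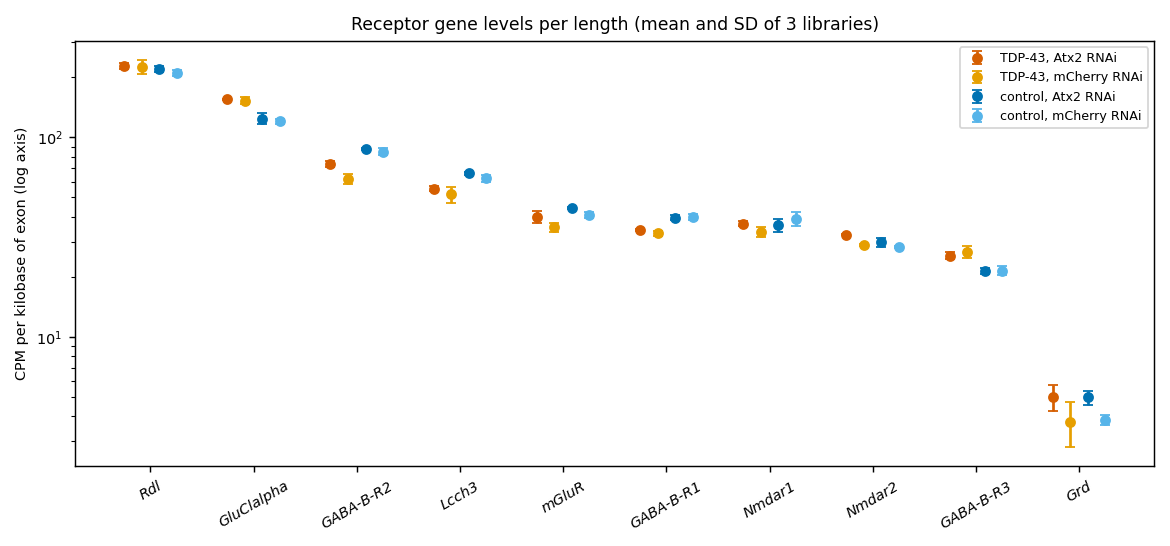
Level of each receptor gene in CPM per kilobase of exon (log axis), as mean and SD of 3 libraries in each of the 4 groups. Rdl and GluClalpha lie above 100 CPM per kilobase in all 4 groups, and Grd lies near 4 to 5.

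Receptor gene levels differed between TDP-43 and control flies in both directions. Under the mCherry hairpin, transcripts of both obligate GABA-B subunits, of Lcch3, of Nmdar1 and of mGluR fell, while those of GABA-B-R3 and of GluClalpha rose. That makes 2 higher and 5 lower of 10, by the quasi-likelihood test of edgeR, with p-values adjusted over all genes tested after Benjamini and Hochberg. Across the 10738 genes, 37.6% were called at an adjusted p under 0.05 in the same comparison, 19.2% higher and 18.3% lower. The members' median log2 fold change was -0.12, beside 0.03 over all genes, and their median absolute change of 0.24 equalled that of all genes. The groups' libraries did not overlap in 6 of the 10, against 46.4% of all genes.

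Under the Atx2 hairpin, with other libraries on both sides, TDP-43 flies again had less Lcch3, GABA-B-R1 and GABA-B-R2 and more GABA-B-R3 and GluClalpha than control flies, and Nmdar2 was also higher. There 3 members were higher and 3 lower, where 22.5% of all genes were called, 12.1% higher and 10.4% lower, and libraries did not overlap in 7 of 10, against 43.8% of all genes. The median was 0.02, beside -0.01 over all genes. Within TDP-43 flies, Atx2 RNAi raised GABA-B-R2 and Nmdar2 and lowered none of the 10, with 14% of all genes called, 7.68% higher and 6.36% lower, and a median of 0.11, beside -0.02 over all genes. Left out singly, replicates 2 and 3 of the TDP-43 flies with Atx2 RNAi gave 0 and 1 called members there, and replicates 1 and 3 of the TDP-43 flies with mCherry RNAi gave 4 and 1. Libraries did not overlap in 5 of the 10 there, against 32.7% of all genes. Within control flies, Atx2 RNAi changed none of the 10 by edgeR's test or by DESeq2. Only Grd had an unadjusted p under 0.05 there, 6.17% of all genes were called, 3.24% higher and 2.93% lower, libraries did not overlap in 3 of the 10, against 25.7% of all genes, and the members' median was 0.06, beside 0.00294 over all genes.

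The difference between the TDP-43 effects under the 2 hairpins was tested as an interaction. By edgeR 0 of the 10 were called, 2 had an unadjusted p under 0.05, and 0.428% of all genes were called, 0.261% with a positive and 0.168% with a negative difference. DESeq2 called 1 of the 10, GABA-B-R2. The comparison of TDP-43 with control under mCherry RNAi and that of Atx2 with mCherry RNAi in TDP-43 flies share the 3 libraries of TDP-43 flies with mCherry RNAi, on opposite sides, so a chance deviation of these libraries moves both with opposite sign. Their values are given side by side for each gene.

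**Figure D2:**
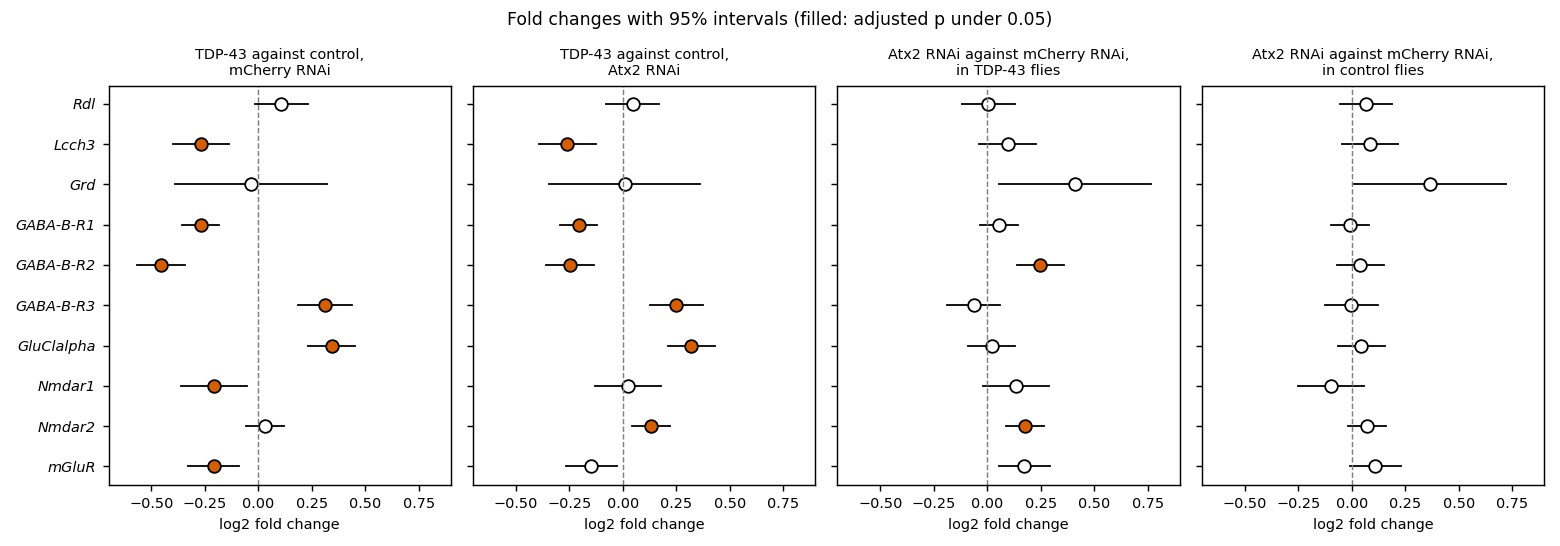
Log2 fold change of each receptor gene in the 4 comparisons of 2 groups, with its 95% interval; filled points have an edgeR adjusted p under 0.05. TDP-43 against control has 7 filled points with mCherry RNAi and 6 with Atx2 RNAi, and Atx2 RNAi against mCherry RNAi has 2 in TDP-43 flies and 0 in control flies.

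The metabotropic GABA receptor genes moved in opposite directions. GABA-B-R2 (FBgn0027575, dm6 3R, 21770333 to 21775840, minus strand), the subunit that couples to the G protein, had 289, 306 and 286 CPM in TDP-43 flies with Atx2 RNAi and 256, 256 and 229 CPM in TDP-43 flies with mCherry RNAi. Control flies had 352, 349 and 344 CPM with Atx2 RNAi and 347, 346 and 324 CPM with mCherry RNAi. All 6 TDP-43 libraries were thus below all 6 control libraries, and within TDP-43 flies the 3 Atx2 RNAi libraries were above the 3 mCherry RNAi libraries. The share of all genes with such a separation of 6 from 6 libraries was not counted, here or for the genes below. With mCherry RNAi it fell by 27.1% in TDP-43 flies (log2 fold change -0.46 ± 0.05, SE; edgeR adjusted p = 3.81e-05), the smallest adjusted p of the 10 genes. With Atx2 RNAi it fell by 15.7% in TDP-43 flies (-0.25 ± 0.05; edgeR adjusted p = 0.0044). Atx2 RNAi raised it by 18.8% in TDP-43 flies (0.25 ± 0.05; edgeR adjusted p = 0.00772), against 0.04 ± 0.05 in control flies (edgeR adjusted p = 0.728). The value in TDP-43 flies stayed between 0.196 and 0.288 in all alternatives run. Its call was lost in 2 of them, at 0.21 without replicate 2 of the TDP-43 flies with Atx2 RNAi (edgeR adjusted p = 0.0585) and at 0.25 in a fit of these 2 groups alone with replicate number as a block (0.0596). The interaction was 0.21 ± 0.07, with an edgeR adjusted p of 0.205 (unadjusted 0.0136) and a DESeq2 adjusted p of 0.0338, so whether TDP-43 lowered GABA-B-R2 less under the Atx2 hairpin depended on the tool.

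GABA-B-R1 (FBgn0260446, 2L, 15016331 to 15034704, plus strand), which binds GABA, had 194, 195 and 192 CPM in TDP-43 flies with Atx2 RNAi and 187, 191 and 180.0 CPM in TDP-43 flies with mCherry RNAi. In control flies it had 218, 230.3 and 221 CPM with Atx2 RNAi and 225, 231 and 216 CPM with mCherry RNAi. Again every TDP-43 library lay below every control library. It fell by 17% with mCherry RNAi (-0.27 ± 0.04; edgeR adjusted p = 0.000305) and fell by 13.3% with Atx2 RNAi (-0.21 ± 0.04; edgeR adjusted p = 0.00304). With libraries scaled to the neuron markers, the value under Atx2 RNAi was -0.13 and just missed the test (edgeR adjusted p = 0.0506). Unlike for GABA-B-R2, no difference between the hairpins passed the test, with 0.06 ± 0.04 in TDP-43 flies (95% interval -0.03 to 0.14; edgeR adjusted p = 0.396) and -0.01 ± 0.04 in control flies (edgeR adjusted p = 0.942), although its 3 TDP-43 libraries with Atx2 RNAi were also above the 3 with mCherry RNAi.

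GABA-B-R3 (FBgn0031275, 2L, 749945 to 762399, plus strand, 7 annotated transcripts) is the third GABA-B-type gene of flies, whose product is less well understood. It had 172, 186 and 180.2 CPM in TDP-43 flies with Atx2 RNAi and 193, 196 and 173 CPM in TDP-43 flies with mCherry RNAi, against 148, 156 and 148 CPM in control flies with Atx2 RNAi and 158, 153 and 142 CPM in control flies with mCherry RNAi. Here every TDP-43 library was above every control library. It rose by 24.1% with mCherry RNAi (0.31 ± 0.06; edgeR adjusted p = 0.00121) and by 18.9% with Atx2 RNAi (0.25 ± 0.06; edgeR adjusted p = 0.00792). The hairpins did not separate its libraries in TDP-43 flies (-0.06 ± 0.06; edgeR adjusted p = 0.499) or in control flies (-0.0023 ± 0.06; edgeR adjusted p = 0.989).

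**Figure D3:**
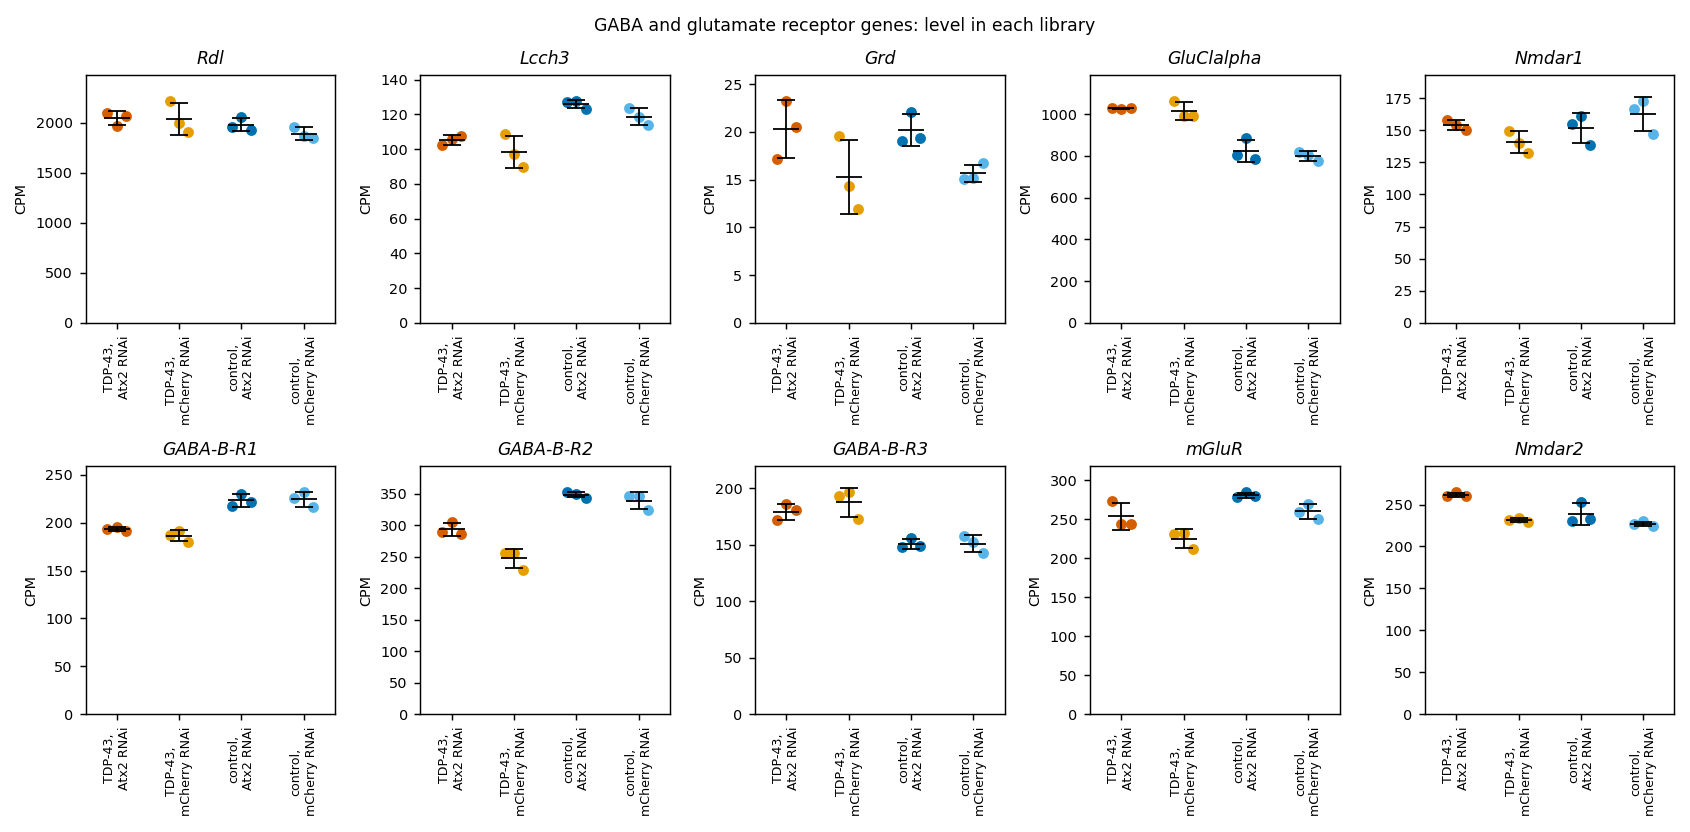
CPM of each receptor gene in each of the 12 libraries (points) with the group mean and SD (bars), by group; each axis starts at 0. For GABA-B-R1 and GABA-B-R2 the 6 TDP-43 libraries lie below the 6 control libraries, and for GABA-B-R3 and GluClalpha they lie above.

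Among the GABA-gated channels, Rdl (FBgn0004244, 3L, 9145838 to 9182149, minus strand), the main subunit and the target of the insecticide dieldrin, had 2092, 1963 and 2070 CPM in TDP-43 flies with Atx2 RNAi and 2213, 1992 and 1902 CPM in TDP-43 flies with mCherry RNAi. Control flies had 1958, 2052 and 1924 CPM with Atx2 RNAi and 1958, 1869 and 1841 CPM with mCherry RNAi. The groups overlapped in all 4 comparisons. The TDP-43 effect was 0.11 ± 0.06 with mCherry RNAi (95% interval -0.02 to 0.23; edgeR adjusted p = 0.153) and 0.05 ± 0.06 with Atx2 RNAi (-0.08 to 0.17; edgeR adjusted p = 0.621). When libraries were scaled to the neuron markers instead of by TMM, the value with mCherry RNAi was 0.22 and passed the test (edgeR adjusted p = 0.00165). That scaling raised the median of all genes by 0.12 in this comparison. Atx2 RNAi against mCherry RNAi gave 0.0043 ± 0.06 in TDP-43 flies (edgeR adjusted p = 0.971) and 0.07 ± 0.06 in control flies (edgeR adjusted p = 0.576).

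Lcch3 (FBgn0010240, X, 15925105 to 15928529, plus strand) encodes a Cys-loop subunit that can form GABA-gated channels together with Grd in heterologous cells. It had 102, 106 and 108 CPM in TDP-43 flies with Atx2 RNAi and 108, 97.0 and 89.96 CPM in TDP-43 flies with mCherry RNAi, against 127, 128 and 123 CPM in control flies with Atx2 RNAi and 124, 119 and 114 CPM in control flies with mCherry RNAi. All TDP-43 libraries were below all control libraries. Its transcript fell by 17% with mCherry RNAi (-0.27 ± 0.06; edgeR adjusted p = 0.00459) and fell by 16.4% with Atx2 RNAi (-0.26 ± 0.06; edgeR adjusted p = 0.00937, but 0.053 when libraries were scaled by total counts alone). Ranbp16, on the opposite strand, covers 24% of the exon bases of Lcch3, and the sources used here do not give how the authors' counting treated strand. Ranbp16 also fell, by 0.20 ± 0.06 with mCherry RNAi on the log2 scale (edgeR adjusted p = 0.0185), where 18.3% of all genes fell. Whether the counts of the 2 genes share reads was not tested. Atx2 RNAi against mCherry RNAi gave 0.10 ± 0.06 for Lcch3 in TDP-43 flies (edgeR adjusted p = 0.329, but 0.17 and 0.0441 without replicate 1 of the mCherry RNAi group) and 0.09 ± 0.06 in control flies (edgeR adjusted p = 0.484).

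Grd (FBgn0001134, 3L, 17823333 to 17839767, plus strand), a further GABA receptor subunit, had the lowest level of the 10 genes and the widest intervals. It had 17.2, 23.2 and 20.5 CPM in TDP-43 flies with Atx2 RNAi and 19.5, 14.4 and 11.9 CPM in TDP-43 flies with mCherry RNAi, against 19.1, 22.1 and 19.4 CPM in control flies with Atx2 RNAi and 15.1, 15.2 and 16.7 CPM in control flies with mCherry RNAi. The TDP-43 effects were -0.03 ± 0.16 with mCherry RNAi (edgeR adjusted p = 0.891) and 0.01 ± 0.16 with Atx2 RNAi (edgeR adjusted p = 0.977), with intervals that reach from -0.39 to 0.32 and from -0.34 to 0.36. Atx2 RNAi against mCherry RNAi gave 0.41 ± 0.16 in TDP-43 flies (edgeR adjusted p = 0.12) and 0.37 ± 0.16 in control flies (edgeR adjusted p = 0.239), where the libraries did not overlap. Without replicate 1 of the TDP-43 flies with mCherry RNAi, the first of these values was 0.63 and passed the test (edgeR adjusted p = 0.00995). That replicate also had the lowest fat body marker sum of its group, 2832 CPM against 7659 and 10672 CPM in replicates 2 and 3, and the part of this in the value was not tested. CG5577, on the opposite strand, covers 27.5% of the exon bases of Grd and stood at 8.86 to 12.5 CPM in the 4 group means.

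GluClalpha (FBgn0024963, 3R, 19730715 to 19775231, plus strand, 11 annotated transcripts) encodes the glutamate-gated chloride channel, the target of ivermectin, through which glutamate inhibits neurons. It had 1031, 1027 and 1030 CPM in TDP-43 flies with Atx2 RNAi and 1062, 991 and 989 CPM in TDP-43 flies with mCherry RNAi. Control flies had 806, 885 and 784 CPM with Atx2 RNAi and 819, 804 and 775 CPM with mCherry RNAi. Every TDP-43 library lay above every control library. The rise was 26.9% with mCherry RNAi (0.34 ± 0.05; edgeR adjusted p = 0.000276) and 24.8% with Atx2 RNAi (0.32 ± 0.05; edgeR adjusted p = 0.000705). It passed the test in both comparisons under every alternative tried, with an edgeR adjusted p of at most 0.00242 and 0.00737 when single libraries were left out. The hairpin made no difference that passed the test, 0.02 ± 0.05 in TDP-43 flies (95% interval -0.09 to 0.13; edgeR adjusted p = 0.818) and 0.05 ± 0.05 in control flies (-0.06 to 0.15; edgeR adjusted p = 0.681).

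The NMDA receptor needs Nmdar1, which binds glycine or a like co-agonist, and Nmdar2, which binds glutamate. Nmdar1 (FBgn0010399, 3R, 5508842 to 5523328, minus strand) had 158, 154 and 150.3 CPM in TDP-43 flies with Atx2 RNAi and 149, 139.7 and 133 CPM in TDP-43 flies with mCherry RNAi, against 155, 161 and 139 CPM in control flies with Atx2 RNAi and 167, 173 and 147 CPM in control flies with mCherry RNAi. In both pairs the libraries of TDP-43 and control flies overlapped. With mCherry RNAi it fell by 13.4% in TDP-43 flies (-0.21 ± 0.07; edgeR adjusted p = 0.0361). This call was lost without replicate 3 of the TDP-43 flies with mCherry RNAi (edgeR adjusted p = 0.117), without replicate 1 or 2 of the control flies with mCherry RNAi (0.102 and 0.134), with total-count scaling (0.0952), with neuron marker scaling (0.293), with a stricter filter on low counts (0.0707) and with only these 2 groups in the fit (0.0881). With Atx2 RNAi the effect was 0.02 ± 0.07 (95% interval -0.13 to 0.18; edgeR adjusted p = 0.847). Atx2 RNAi against mCherry RNAi gave 0.13 ± 0.07 in TDP-43 flies (edgeR adjusted p = 0.239), where the libraries did not overlap, and -0.10 ± 0.07 in control flies (edgeR adjusted p = 0.496). The interaction was 0.23 ± 0.10, with an unadjusted p of 0.0388 and an edgeR adjusted p of 0.295.

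Nmdar2 (FBgn0053513, X, 1483625 to 1507809, minus strand) had 259.7, 264 and 261 CPM in TDP-43 flies with Atx2 RNAi, the highest group, and 231, 234 and 229.6 CPM in TDP-43 flies with mCherry RNAi. Control flies had 231, 254 and 232 CPM with Atx2 RNAi and 227, 229.9 and 225 CPM with mCherry RNAi. All 3 libraries of TDP-43 flies with Atx2 RNAi were above the other 9, and the share of all genes with such a separation was not counted. Atx2 RNAi raised it by 12.9% in TDP-43 flies (0.18 ± 0.04; edgeR adjusted p = 0.0144), against 0.07 ± 0.04 in control flies (edgeR adjusted p = 0.356), and the interaction did not pass the test (0.10 ± 0.06; edgeR adjusted p = 0.438). The call in TDP-43 flies was lost without replicate 2 or 3 of the Atx2 RNAi group (edgeR adjusted p = 0.0885 and 0.0545), without replicate 3 of the mCherry RNAi group (0.0661) and with a replicate block in a fit of the 2 groups (0.0821). TDP-43 against control gave 0.03 ± 0.04 with mCherry RNAi (edgeR adjusted p = 0.602) and a rise of 9.52% with Atx2 RNAi (0.13 ± 0.04; edgeR adjusted p = 0.0369). That last call was lost with 9 of the 12 libraries left out in turn, at edgeR adjusted p-values from 0.0531 to 0.156 (all but replicate 1 of both mCherry RNAi groups and replicate 2 of the control flies with Atx2 RNAi), and without the filter on low counts (0.0693). The sleep gene inc lies within Nmdar2 on the opposite strand and shares none of its exon bases.

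The metabotropic glutamate receptor mGluR (4, 936819 to 949441, plus strand, FBgn0019985), which acts through inhibitory G proteins like the GABA-B receptors, had 273, 243 and 244 CPM in TDP-43 flies with Atx2 RNAi and 231, 233 and 211 CPM in TDP-43 flies with mCherry RNAi. Control flies had 278, 284 and 279 CPM with Atx2 RNAi and 259, 269.8 and 250.1 CPM with mCherry RNAi. Under each hairpin the TDP-43 libraries lay below the control libraries without overlap. It fell by 13.4% with mCherry RNAi (-0.21 ± 0.05; edgeR adjusted p = 0.011, but 0.233 with neuron marker scaling). With Atx2 RNAi the value was -0.15 ± 0.05 (edgeR adjusted p = 0.0787), which passed the test with a replicate block (0.0471 over all 12 libraries and 0.0395 in the 2 groups alone) and without replicate 1 of the TDP-43 flies with Atx2 RNAi (0.0312). Atx2 RNAi against mCherry RNAi gave 0.17 ± 0.05 in TDP-43 flies (edgeR adjusted p = 0.058, 0.0206 by DESeq2, 0.0343 with a replicate block over all 12 libraries, and 0.0473 without replicate 2 of the mCherry RNAi group) and 0.11 ± 0.05 in control flies (edgeR adjusted p = 0.296).

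Ratios between subunit genes within a library do not depend on how libraries are scaled. They are described here without a test, since they combine values already tested. The log2 ratio of GABA-B-R3 to GABA-B-R2 was -0.75, -0.72 and -0.67 in TDP-43 flies with Atx2 RNAi and -0.41, -0.38 and -0.41 in TDP-43 flies with mCherry RNAi, against -1.25, -1.16 and -1.21 in control flies with Atx2 RNAi and -1.14, -1.18 and -1.18 in control flies with mCherry RNAi. The 2 TDP-43 groups did not overlap with each other or with the control groups, while the 2 control groups overlapped. The separation of TDP-43 from control libraries follows from that of the 2 genes given above and is no further result. The ratio was 0.77 ± 0.02 (SE) higher with TDP-43 under mCherry RNAi and 0.50 ± 0.04 higher under Atx2 RNAi.

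For GABA-B-R1 over GABA-B-R2, the subunits of the classical heterodimer, the log2 ratio was -0.60 ± 0.04 in TDP-43 flies with Atx2 RNAi, -0.41 ± 0.05 in TDP-43 flies with mCherry RNAi, -0.64 ± 0.05 in control flies with Atx2 RNAi and -0.59 ± 0.02 in control flies with mCherry RNAi (SD, n = 3). Only the TDP-43 flies with mCherry RNAi stood apart, with all 3 libraries above the other 9, and how often other gene pairs separate so was not counted. Lcch3 over Rdl was -4.28 ± 0.07 in TDP-43 flies with Atx2 RNAi and -4.37 ± 0.03 with mCherry RNAi, against -3.97 ± 0.03 and -3.99 ± 0.02 in control flies with Atx2 RNAi and with mCherry RNAi. It was therefore lower in all 6 TDP-43 libraries than in all 6 control libraries. Nmdar2 over Nmdar1 ran from 0.63 to 0.79 in TDP-43 flies and from 0.41 to 0.61 in control flies under mCherry RNAi, and from 0.72 to 0.79 in TDP-43 flies and from 0.57 to 0.74 in control flies under Atx2 RNAi, where the groups overlapped.

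**Figure D4:**
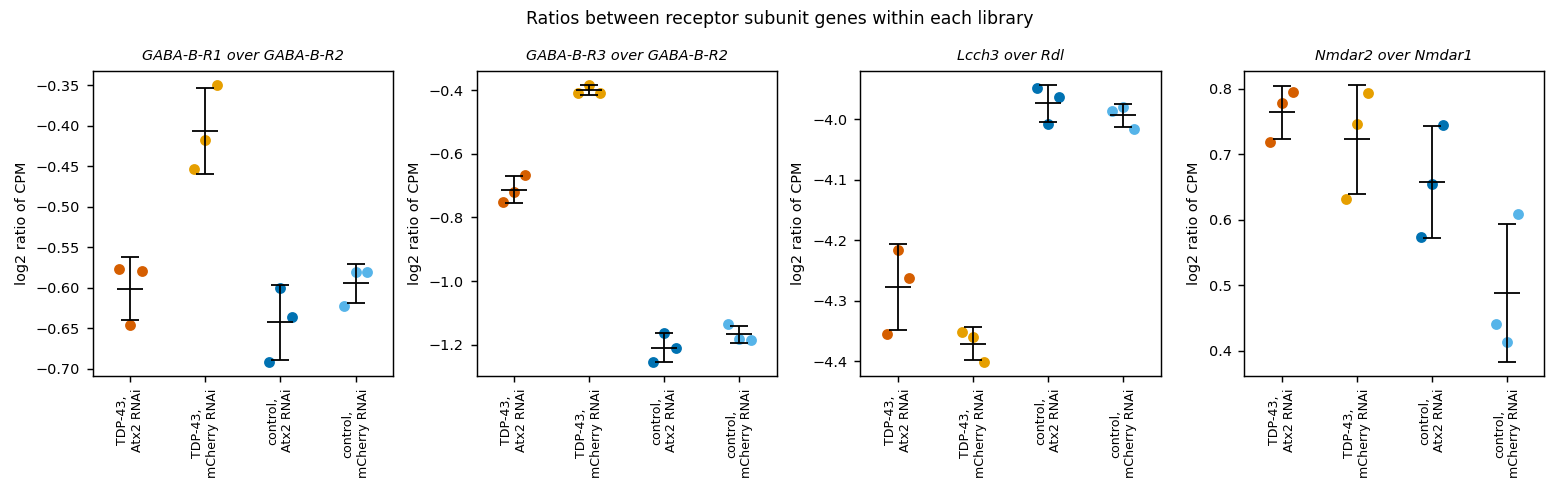
Log2 ratio of CPM between pairs of receptor subunit genes in each library (points), with the group mean and SD (bars), by group. The axes do not start at 0; GABA-B-R3 over GABA-B-R2 lies near -0.40 in TDP-43 flies with mCherry RNAi and near -1.17 in control flies with mCherry RNAi.

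The genes with the most similar profiles were sought for the 4 members with the smallest adjusted p under mCherry RNAi. Likeness was the root mean square difference between mean-centred log2 CPM over the 12 libraries, among 7602 genes of at least 5 CPM. For GABA-B-R2 the nearest were CG15270 (0.0388), side-IV (0.039), which encodes a cell surface protein of the immunoglobulin superfamily, and CG4896 (0.0407), where the median over all these genes was 0.223. All 3 had lower levels with TDP-43 under mCherry RNAi, side-IV by 0.41 ± 0.05 on the log2 scale. Being picked for likeness to GABA-B-R2 in these same libraries, they had to fall with it, so no test is given. For GluClalpha they were dpr8 (0.037), another immunoglobulin superfamily gene, gprs (0.0453) and Liprin-gamma (0.0504), an active zone gene. GABA-B-R1 was nearest to gogo (0.032), noi (0.0328) and galectin (0.0352), and GABA-B-R3 to rdo (0.046), lark (0.052) and CG13671 (0.0555). These distances are descriptions of the 12 libraries and carry no test.

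Of 12 other ionotropic glutamate receptor genes, 0 were higher and 4 lower with TDP-43 under mCherry RNAi, where 37.6% of all genes were called, 19.2% higher and 18.3% lower. GluRIA and GluRIB, which encode AMPA-type subunits, stood at 79.3 ± 8.36 and 168 ± 8.82 CPM in TDP-43 flies with mCherry RNAi and at 103 ± 6.84 and 209 ± 6.66 CPM in control flies with the same hairpin (-0.38 ± 0.08 and -0.31 ± 0.04; edgeR adjusted p = 0.00265 and 0.000183). The kainate-type genes KaiR1D (-0.34; edgeR adjusted p = 0.00135) and CG11155 (-0.24; 0.0012) were also lower. The list's median was 0.09, beside 0.03 over all genes, and all 5 genes of the neuromuscular junction in it, GluRIIA to GluRIIE, had positive values that did not pass edgeR's test. DESeq2 called 1 higher, GluRIIC, and the same 4 lower, and edgeR with single libraries left out called 0 to 1 higher. Under Atx2 RNAi GluRIB (-0.28; edgeR adjusted p = 0.000542) and CG11155 (-0.22; 0.00387, and 0.0564 with total-count scaling) were lower with TDP-43, and GluRIIC was higher, at 1.76 ± 0.252 CPM in TDP-43 flies and 0.469 ± 0.281 CPM in control flies (1.89; edgeR adjusted p = 0.0451). The call of GluRIIC was lost with 9 of the 12 libraries left out in turn (edgeR adjusted p = 0.0522 to 0.154), with a replicate block (0.0718) and without the filter on low counts (0.0557). Muscle marker sums were 173 to 323 CPM and 83.6 to 148 CPM in the same 2 groups, and their part in this value was not tested. Among TDP-43 flies, 4 were higher and 1 lower with Atx2 RNAi, beside 7.68% and 6.36% of all genes. That count was 1 and 1 without replicate 2 and 2 and 1 without replicate 1 of the Atx2 RNAi group, 2 and 0 without replicate 3 of the mCherry RNAi group, 2 and 0 in a fit of the 2 groups alone, and 3 and 0 with a replicate block in it. Grik had 19.6 ± 0.58 CPM with Atx2 RNAi and 14.2 ± 0.836 CPM with mCherry RNAi (0.47; edgeR adjusted p = 0.00177), KaiR1D 116 ± 5.14 and 93.8 ± 7.36 CPM (0.31; 0.0086), and clumsy 0.885 ± 0.386 and 2.77 ± 1.07 CPM (-1.64; 0.0127). Without replicate 2 of the TDP-43 flies with Atx2 RNAi the edgeR adjusted p of KaiR1D was 0.0585, and without replicate 3 of those with mCherry RNAi that of clumsy was 0.051. In the 2 groups alone that of clumsy was 0.0696, and 0.113 with a replicate block. The other 2 that rose were CG11155 (0.17; edgeR adjusted p = 0.0271, 0.0535 to 0.112 without any 1 of 5 libraries, 0.0748 in the 2 groups alone and 0.108 with a replicate block in them) and, named after its value was seen, GluRIA (0.28; edgeR adjusted p = 0.0317). Grik and clumsy also changed in control flies with Atx2 RNAi against mCherry RNAi (0.46 and -2.26; edgeR adjusted p = 0.00339 and 0.00566).

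Of 7 testable genes in a further list, of Cys-loop chloride channels, 0 were higher and 2 lower with TDP-43 under mCherry RNAi. Of all genes, 19.2% were higher and 18.3% lower there. The 2 were CG8916 (-0.50; edgeR adjusted p = 0.00197) and CG12344 (-0.52; 0.0105, and 0.0506 with only these 2 groups in the fit). The list's largest value, 4.56, did not pass edgeR's test, and DESeq2 also called pHCl-2 higher. Under Atx2 RNAi edgeR called 1 higher with TDP-43, pHCl-2, and 1 lower, CG8916, beside 12.1% and 10.4% of all genes. With the stricter filter on low counts CG8916 alone was called. The pH-gated channel pHCl-1 was the 1 that Atx2 RNAi raised, in TDP-43 flies to 286 ± 13.1 CPM, against 245 ± 7.33 CPM with mCherry RNAi (0.22; edgeR adjusted p = 0.00658), and in control flies to 300.5 ± 7.97 CPM, against 260.4 ± 6.41 CPM (0.21; 0.0178). The call in control flies was lost without replicate 2 or 3 of the Atx2 RNAi group (edgeR adjusted p = 0.119 for both) and without replicate 2 or 3 of the mCherry RNAi group (0.0573 and 0.115), and with a replicate block in the 2 groups alone pHCl-1 had an adjusted p of 0.0787 in TDP-43 flies.

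Of 14 genes that make, move and break down the transmitters, 1 was higher and 9 were lower with TDP-43 under mCherry RNAi, with a median of -0.27, beside 19.2% of all genes higher and 18.3% lower. The plasma membrane transporter Eaat2 stood at 209.7 ± 6.98 CPM in TDP-43 flies and 285 ± 10.5 CPM in control flies (-0.44; edgeR adjusted p = 9.88e-06), the GABA transporter Gat at 368 ± 26.3 and 469 ± 12.7 CPM (-0.35; 0.000219), and the vesicular glutamate transporter VGlut at 457 ± 13.9 and 576 ± 14.1 CPM (-0.33; 8.41e-05). The exception was gb, the glial exchanger that releases glutamate, at 44.8 ± 4.46 CPM in TDP-43 flies and 21.1 ± 1.04 CPM in control flies (1.09; edgeR adjusted p = 8.11e-07). Under Atx2 RNAi 1 was higher and 6 lower with TDP-43, beside 12.1% and 10.4% of all genes, and 1 and 10 with a replicate block in these 2 groups alone. Within TDP-43 flies Atx2 RNAi gave 1 higher, VGlut (0.20; edgeR adjusted p = 0.00765), and 5 lower, beside 7.68% and 6.36% of all genes. Among these were Gabat, the transaminase that breaks down GABA (343 ± 9.35 CPM with Atx2 RNAi and 492 ± 53.9 CPM with mCherry RNAi; -0.52, edgeR adjusted p = 0.0011), and the glutamine synthetases Gs1 (-0.46; 0.00238) and Gs2 (-0.28; 0.00194). With a replicate block in these 2 groups alone, the edgeR adjusted p was 0.0974 for VGlut and 0.0597 for Gs2, and the count was 0 higher and 2 lower, Gabat and Gs1. Within control flies 0 were higher and 4 lower with Atx2 RNAi, Gabat again among them (-0.52; edgeR adjusted p = 0.00164), beside 3.24% and 2.93% of all genes. Gabat alone was called without replicate 1 of the mCherry RNAi group, and Gabat and Gs1 without replicate 1 of the Atx2 RNAi group and with a replicate block in the 2 groups alone, while DESeq2 called 7 lower.

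Of 13 genes for receptor scaffolds and for the G proteins and potassium channels that GABA-B receptors act through, 3 were higher and 7 lower with TDP-43 under mCherry RNAi, with a median of -0.18, beside 19.2% and 18.3% of all genes. The inward rectifier potassium channel gene Irk2 fell most, to 98.8 ± 3.05 CPM in TDP-43 flies, against 186 ± 9.63 CPM in control flies (-0.91; edgeR adjusted p = 1.76e-07). The inhibitory G protein genes moved apart: Galphai stood at 65.9 ± 4.35 CPM in TDP-43 flies and 40.4 ± 1.57 CPM in control flies (0.71; edgeR adjusted p = 1.79e-06), while Galphao stood at 737 ± 38.8 and 901 ± 28.9 CPM (-0.29; 0.000411). The postsynaptic scaffold gene Prosap, the fly Shank, was higher (0.55; edgeR adjusted p = 1.22e-05). Under Atx2 RNAi 3 were higher and 6 lower with TDP-43, beside 12.1% and 10.4% of all genes. In TDP-43 flies Atx2 RNAi raised 3 and lowered 0: Irk2 (0.28; edgeR adjusted p = 0.00499), the scaffold gene dlg1 (0.20; 0.00743) and Neto, which encodes an auxiliary protein of kainate receptors (0.21; 0.0367). The edgeR adjusted p of dlg1 was 0.0766 with a replicate block in these 2 groups alone, and that of Neto was up to 0.185, without replicate 2 of the Atx2 RNAi group. The block in these 2 groups left Irk2 as the 1 call. In control flies edgeR called 0 of the 13 between the hairpins (3 had an unadjusted p under 0.05, and DESeq2 called CaMKII), where the values of Irk2 and dlg1 were 0.0023 and 0.13.

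**Figure D5:**
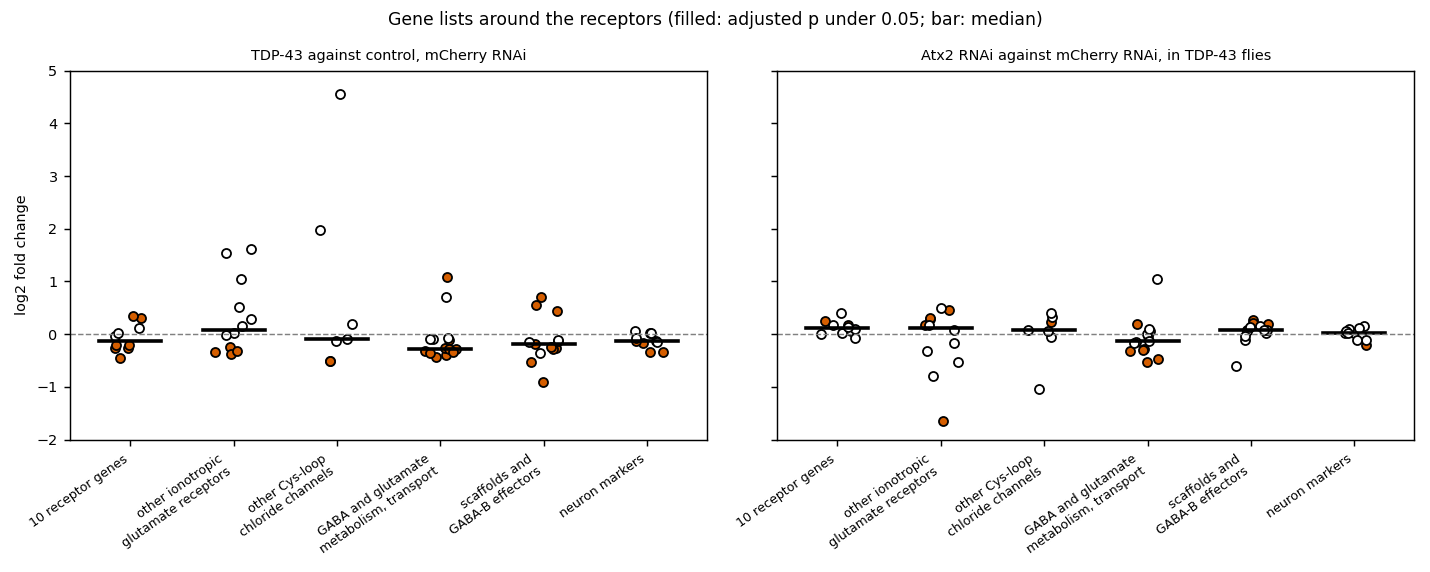
Log2 fold change of the tested genes in the receptor list, the 4 lists around it and the neuron markers (points, spread sideways for visibility; filled, edgeR adjusted p under 0.05; bar, list median), for TDP-43 against control with mCherry RNAi (left) and Atx2 RNAi against mCherry RNAi in TDP-43 flies (right). On the left, metabolism and transport genes have 9 filled points below 0 and 1 above; on the right the receptor genes have 2 filled points, both above 0.

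The marker lists of other cell types are given first for TDP-43 against control under mCherry RNAi, then for the hairpins. In TDP-43 against control under mCherry RNAi, 19.2% of all genes were called higher and 18.3% lower, the shares to set beside each count for that comparison. Of 10 neuron markers 0 were higher and 5 lower with TDP-43 under mCherry RNAi, with a median of -0.13, nSyb (-0.34 ± 0.05; edgeR adjusted p = 0.000228) among them. That count fell to 2, fne and nSyb, with total-count scaling, with only the 2 groups in the fit and without replicate 3 of the TDP-43 flies with mCherry RNAi. Of 11 muscle markers 4 were higher and 0 lower, and Act57B alone was called with a replicate block, without the filter on low counts, with only the 2 groups in the fit, and without any 1 of 8 libraries. Leaving out replicate 3 of the TDP-43 flies with Atx2 RNAi gave 2. The muscle count was instead 9 without replicate 1 of the TDP-43 flies with mCherry RNAi, 7 without replicate 3 of the control flies with mCherry RNAi, and 8 by DESeq2. Of 10 glia markers 3 were higher and 4 lower, and of 10 fat body markers 5 higher and 1 lower. The fat body values ran from -6.13 to 10.5, 8 positive and 2 negative, so their summed level does not stand for every member. None of the 15 photoreceptor genes and none of the 7 testable gut and salivary enzymes passed edgeR's test, where 0 and 6 of them had an unadjusted p under 0.05 and DESeq2 called 0 and 1, Amy-p. With a replicate block 4 gut and salivary enzymes were higher, and 4 and 3 without replicate 2 of the TDP-43 flies with Atx2 RNAi and replicate 1 of those with mCherry RNAi. Between the hairpins, all 11 muscle markers were negative with Atx2 RNAi (median -0.94 in TDP-43 flies, -0.78 in control flies). Of 15 photoreceptor genes, 13 were positive in TDP-43 flies (median 0.27) and 15 in control flies (0.94). EdgeR called 0 of both lists, against 14% of all genes in TDP-43 flies and 6.17% in control flies. DESeq2 called Act88F lower in control flies, and 3 muscle markers were lower in TDP-43 flies without replicate 1 of the mCherry RNAi group. Scaled to the summed neuron markers, which raised the median of all genes by 0.12, the TDP-43 effect under mCherry RNAi on the receptor genes was called for 4 higher, GABA-B-R3, GluClalpha, Rdl and Nmdar2, and 3 lower, GABA-B-R1, GABA-B-R2 and Lcch3. The part of these marker lists in the results beyond that, for TDP-43 or for the hairpins, was not tested.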

How the data were processed

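RNA of male fly brains was sequenced as 150-base read pairs from a stranded polyA library, with 40 M reads planned per library and 3 biological replicates per group, per the labels' protocols. The authors deposited raw, unnormalised read counts per gene. Trim Galore, SAMtools, DESeq2, the aligner STAR 2.7.3a and the build dm6 appear in the submitters' processing notes; the counting step and its strand setting are not given in the sources used here. All 12 columns belonged to a labelled library and 0 to none.

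The counts were analysed with edgeR 4.0.16 under R 4.3.3. filterByExpr kept 10738 of 17562 genes, libraries were scaled by TMM, and the means of the 4 groups were fitted in 1 model of the 12 libraries (8 residual degrees of freedom), with robust quasi-likelihood F-tests of the contrasts. Benjamini-Hochberg adjustment ran over all genes tested in a comparison, and a gene was called under 0.05. "edgeR adjusted p" means this test and adjustment. CPM and 95% intervals of fold changes come from the same fit's library sizes and spread. Exon lengths and coordinates are from the Ensembl 115 annotation of dm6. The steps were tested on simulated data. DESeq2 1.42.0 was an alternative, and other scalings, filters, sample sets, a replicate block and leaving out each library were tried.

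The receptor genes and the 10 other lists were chosen with earlier results of these data known. Besides the members, Atx2, TBPH and w, the text names up to 4 called genes per list and comparison by smallest adjusted p, and the 3 nearest profiles for each of 4 members.

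The labels do not say that a replicate number marks a shared batch. Deviations of same-numbered libraries correlated at 0.29, 0.40 and 0.14 under Atx2 RNAi between TDP-43 and control flies. For Atx2 against mCherry RNAi in TDP-43 flies they correlated at 0.25, 0.62 and 0.19. In the other 2 comparisons the values were 0.05, -0.10 and 0.34, and -0.15, -0.10 and -0.33. The main test paired no libraries in any comparison, so all calls given without a named alternative are unpaired. A replicate block was fitted only as an alternative. The block fitted to the 2 groups alone was added after seeing the data.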

Additional observations from a re-analysis of the deposited data

Results flagged for a closer look

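Of the genes outside the receptor list that are named here as markers, 2 glia markers had a TDP-43 effect that differed between the hairpins by edgeR's interaction test with Benjamini-Hochberg adjustment over all genes. For repo, a glial transcription factor gene, the effect with Atx2 RNAi minus that with mCherry RNAi was 0.601 on the log2 scale (edgeR adjusted p = 0.0189), with 0.34 under Atx2 RNAi and -0.26 under mCherry RNAi. The difference for repo stayed between 0.568 and 0.598 but no longer passed the test without any 1 of 6 libraries (edgeR adjusted p = 0.0654 to 0.0886). For axo it was 0.799 (edgeR adjusted p = 0.0039), with -0.36 under Atx2 RNAi and -1.16 under mCherry RNAi. The receptor genes had 0 such differences.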

How the results depend on the processing

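Under mCherry RNAi, the TDP-43 effects on Lcch3, GABA-B-R1, GABA-B-R2, GABA-B-R3 and GluClalpha kept their direction and passed the test in all alternatives run, and under Atx2 RNAi those on GABA-B-R2, GABA-B-R3 and GluClalpha did. The other called members lost their call in the alternatives named with them. Called members with single libraries left out ranged from 6 to 7 (TDP-43 against control, mCherry RNAi), 5 to 6 (Atx2 RNAi), 0 to 4 (Atx2 against mCherry RNAi in TDP-43 flies), 0 to 0 (in control flies) and 0 to 0 (interaction). All genes called then ranged from 3205 to 4261, 1616 to 2581, 731 to 1664, 282 to 784 and 10 to 68 in the same order, where the fit with all libraries called 4035, 2413, 1508, 663 and 46. In TDP-43 flies, Atx2 against mCherry RNAi had 731 and 802 calls without replicates 2 and 3 of the Atx2 RNAi group and 967 without replicate 3 of the mCherry RNAi group. In control flies it had 282, 432 and 327 calls without replicates 1, 2 and 3 of the Atx2 RNAi group, and 380 and 371 without replicates 1 and 2 of the mCherry RNAi group.

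With only the 2 groups in the fit, Atx2 against mCherry RNAi in TDP-43 flies had 911 calls. The 2 groups alone with the replicate block gave 506 calls and 0 receptor genes there, and 336 calls in control flies. For the interaction, DESeq2 called 503 genes and 1 receptor gene, neuron marker scaling gave 30 calls and the replicate block over all libraries 138. Besides the members named with it and GluRIIC, the block over all libraries changed no called receptor gene in the comparisons whose same-numbered libraries all correlated positively. Total-count scaling turned the split of TDP-43 calls under Atx2 RNAi to 1530 higher and 609 lower (1294 and 1119 with TMM), and that under mCherry RNAi to 2246 and 1517 (2067 and 1968 with TMM). With neuron marker scaling, 75.2% of the TDP-43 calls under mCherry RNAi, 73.3% of those under Atx2 RNAi and 46.7% of the interaction calls (28 higher and 18 lower with TMM) were higher.

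Values that changed sign were all small and never passed the test; the cause was not tested. For TDP-43 against control with mCherry RNAi, Grd was 0.00589 with total counts and 0.0744 with neuron marker scaling, and ranged from -0.26 to 0.11 with libraries left out, and Nmdar2 from -0.0039 to 0.0332. With Atx2 RNAi, Grd ranged from -0.10 to 0.11 and Nmdar1 from -0.0289 to 0.0762. For Atx2 against mCherry RNAi in TDP-43 flies, Rdl was -0.0136 with neuron marker scaling and -0.0106 with the stricter filter, and ranged from -0.0437 to 0.0694. In control flies GABA-B-R1 was 0.0124 and GABA-B-R3 0.0186 with neuron marker scaling, and with libraries left out GABA-B-R1 ranged from -0.0552 to 0.0135, GABA-B-R2 from -0.0136 to 0.0565, GABA-B-R3 from -0.0639 to 0.0301 and GluClalpha from -0.026 to 0.0628. For the interaction, Lcch3 was -0.0291 with neuron marker scaling and GluClalpha 0.00068 with total counts, and Rdl ranged from -0.103 to 0.0189, Lcch3 from -0.0455 to 0.102, Grd from -0.102 to 0.277 and GluClalpha from -0.0428 to 0.0451. At 11.9 to 23.2 CPM, Grd had the widest interval.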
